A study of Mus musculus with 99 samples.

Results

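The regions described here are the MTF2 peaks without JARID2 of mouse embryonic stem cells (ESCs). They were chosen by peak overlap: of the 24485 MTF2 peaks listed for Parental −OHT cells, 11169 (45.6%) overlapped none of the 14778 JARID2 peaks of the same cells by even 1 bp, and the other 13316 had JARID2. The study followed PRC1 and PRC2 on chromatin by ChIP-seq and measured RNA by RNA-seq. Its Parental ESCs are ROSA26::creERT2 cells of 129P2/Ola origin without Ring1A (Ring1A −/−) and with floxed Ring1B (Ring1B fl/fl), in which 4-hydroxytamoxifen (OHT, 0.5 µM, 48 or 72 h) activates Cre and deletes Ring1B (gene symbol Rnf2), while −OHT cells received ethanol. The RING1B WT and RING1B I53S lines carry in addition a FLAG-HA-tagged transgene of wild-type or catalytically inactive RING1B, and both were compared −OHT and +OHT. Therefore every cell of these 3 lines lacks RING1A, treated or not. MTF2 KO cells are Cas9-edited clones (MTF2 −/−) of the 3 lines, and Eed fl/fl cells (ROSA26:creERT2) lose EED, a core subunit of PRC2, with OHT, although the labels do not tie their replicates to clones. All were grown with LIF, serum and inhibitors of GSK3β and MEK. Titles give 48 or 72 h where the treatment label gives 72 h throughout, and the titles were followed.

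PRC2 deposits H3K27me3 through its core of EZH2 or EZH1, EED and SUZ12, and exists in alternative forms. PRC2.1 holds a Polycomb-like protein such as MTF2, which binds unmethylated CpG-rich DNA, and can hold EPOP. PRC2.2 holds JARID2 and AEBP2 and binds the H2AK119ub1 that PRC1 deposits through RING1B. An MTF2 peak without a JARID2 peak is therefore a site at which one accessory subunit was detected and the other was not. PRC1 too comes in several forms, among them canonical PRC1 with PCGF2 and CBX7, and variant PRC1 with RYBP, including a variant with PCGF6 that associates with MAX, MGA and E2F6.

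The DNA under 7 of these peaks is shown because the CpG content of their centres differed widely between regions of like MTF2 score. Each sequence is the central 300 bases of the peak on the plus strand of mm10 (GRCm38), with CpG in capitals. The first 3 had the highest MTF2 scores near a protein-coding start site, the next 2 kept MTF2 in every +OHT library, and the last 2 lie near genes that rose in Parental cells with OHT. The windows are Clspn, chr4:126556738-126557037, Natd1, chr11:60913286-60913585, Slc27a4, chr2:29802860-29803159, Mxd1, chr6:86668134-86668433, Gm13007, chr4:135997562-135997861, Gm32585, chr5:125271450-125271749, and Btg2, chr1:134078529-134078828. All 7 peaks lie within 2.5 kb of an annotated start site of the gene they are named after.
Clspn: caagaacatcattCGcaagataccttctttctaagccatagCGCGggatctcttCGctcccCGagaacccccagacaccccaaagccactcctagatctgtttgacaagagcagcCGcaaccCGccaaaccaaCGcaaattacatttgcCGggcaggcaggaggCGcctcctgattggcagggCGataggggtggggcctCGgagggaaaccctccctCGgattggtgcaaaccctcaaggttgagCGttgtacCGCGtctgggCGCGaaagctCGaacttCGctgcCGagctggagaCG
Natd1: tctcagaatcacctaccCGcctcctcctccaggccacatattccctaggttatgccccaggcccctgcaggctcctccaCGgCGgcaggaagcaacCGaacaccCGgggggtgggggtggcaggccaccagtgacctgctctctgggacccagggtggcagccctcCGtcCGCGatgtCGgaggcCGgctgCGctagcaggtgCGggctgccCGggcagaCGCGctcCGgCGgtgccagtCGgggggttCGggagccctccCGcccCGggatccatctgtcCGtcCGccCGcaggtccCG
Slc27a4: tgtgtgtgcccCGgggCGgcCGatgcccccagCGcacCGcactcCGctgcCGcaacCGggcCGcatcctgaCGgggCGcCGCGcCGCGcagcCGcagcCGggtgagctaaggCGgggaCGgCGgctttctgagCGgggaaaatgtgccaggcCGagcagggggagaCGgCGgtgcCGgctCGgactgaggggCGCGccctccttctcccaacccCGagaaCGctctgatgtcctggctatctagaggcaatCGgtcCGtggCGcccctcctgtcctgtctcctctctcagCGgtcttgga
Mxd1: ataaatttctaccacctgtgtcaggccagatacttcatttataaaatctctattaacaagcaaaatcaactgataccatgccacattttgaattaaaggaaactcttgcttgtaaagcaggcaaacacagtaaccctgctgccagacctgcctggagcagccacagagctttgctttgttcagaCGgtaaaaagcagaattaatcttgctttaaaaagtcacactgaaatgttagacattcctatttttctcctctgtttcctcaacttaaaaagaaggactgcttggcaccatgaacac
Gm13007: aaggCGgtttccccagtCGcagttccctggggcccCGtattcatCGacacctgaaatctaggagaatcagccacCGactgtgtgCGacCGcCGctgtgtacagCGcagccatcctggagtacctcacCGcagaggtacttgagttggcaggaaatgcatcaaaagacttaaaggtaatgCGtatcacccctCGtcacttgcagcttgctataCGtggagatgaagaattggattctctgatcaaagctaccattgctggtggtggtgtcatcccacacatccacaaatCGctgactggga
Gm32585: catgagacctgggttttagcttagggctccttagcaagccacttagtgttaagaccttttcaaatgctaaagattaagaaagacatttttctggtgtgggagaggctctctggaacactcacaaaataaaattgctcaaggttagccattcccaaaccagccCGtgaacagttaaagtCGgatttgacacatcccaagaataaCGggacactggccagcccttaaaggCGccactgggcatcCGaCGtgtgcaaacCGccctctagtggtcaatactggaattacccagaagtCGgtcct
Btg2: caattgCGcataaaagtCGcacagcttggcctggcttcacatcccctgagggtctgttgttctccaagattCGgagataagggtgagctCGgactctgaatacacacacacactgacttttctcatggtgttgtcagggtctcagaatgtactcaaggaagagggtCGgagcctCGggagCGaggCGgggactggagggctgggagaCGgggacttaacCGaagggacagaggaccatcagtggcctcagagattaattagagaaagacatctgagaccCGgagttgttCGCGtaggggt
The Slc27a4 window, at a fatty acid transport protein gene, had 34 CpG dinucleotides and an observed over expected CpG ratio of 0.891. Clspn, which encodes the checkpoint adaptor claspin, had 22 and a ratio of 0.856, and Natd1 had 25 and 0.652. In contrast, the Mxd1 window, at the gene of the MAX partner MXD1, had a single CpG (ratio 0.0912) although its MTF2 score (78.0) was close to those of the 3 others (92.0, 85.6 and 83.2). However, the Mxd1 peak was 2919 bp wide, against 723 bp for Clspn, 1454 bp for Natd1 and 1198 bp for Slc27a4. Its window therefore covers a smaller part of the peak, and CpG outside the window was not counted. Gm13007 is a processed pseudogene, and its window had 14 CpG. Gm32585, a predicted gene, had 8, and Btg2, an antiproliferative gene, had 13.

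A score is the −log10 p of a peak in the deposited list, which starts at 10, and no read depth comes with it. The scores and widths of the MTF2 list, the MTF2 and JARID2 overlap and everything derived from them are a description, because they chose the regions. Peaks without JARID2 had a median MTF2 score of 14.7 (highest 92.0) and a median width of 747 bp. Peaks with JARID2 had a median score of 70.9 and a median width of 1945 bp. In total, 8120 of the 11169 scored under 20 and 430 scored 40 or more, so most of the set lay close to the calling threshold. At the edge of the rule, 8 peaks without JARID2 lay within 100 bp of a JARID2 peak (median MTF2 score 12.8), and 9 peaks with JARID2 overlapped it by at most 50 bp (median 12.2). The 8 highest scores at protein-coding start sites were those of Clspn, Natd1, Slc27a4, Ywhae (78.9; a 14-3-3 protein), Mxd1, Wdcp (77.0), Ndrg3 (76.6) and Arf2 (73.9; a small GTPase). Of these, Wdcp lay 541 bp from a JARID2 peak and the others at least 13052 bp away. The median distance to the nearest JARID2 peak was 24545 bp, and 707 regions (6.33%) lay within 1 kb of one. Across the 11 JARID2 libraries of the 3 lines, 60 regions (0.537%) held a JARID2 peak in at least 1. This low count was partly set in advance. The Parental −OHT library is at 0 by the rule, and the others are mostly +OHT and list fewer JARID2 peaks (446 to 7446, against 14778).

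**Figure D1:**
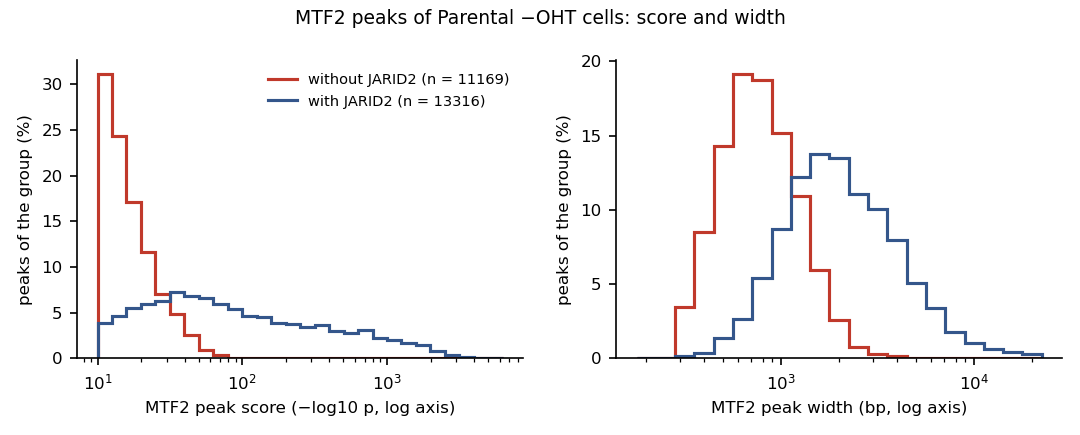
Distribution of MTF2 peak score (left, −log10 p on a log axis) and peak width (right, bp on a log axis) for the 11169 peaks without JARID2 and the 13316 with JARID2, as the percent of each group. The peaks without JARID2 crowd at the low end of both axes, with medians of 14.7 and 747 bp against 70.9 and 1945 bp.

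Because 1 library stands for each antibody and condition (2 for MTF2 and for JARID2 in RING1B WT and RING1B I53S +OHT at 72 h), shares of peaks carry no test between conditions. Their 95% Wilson intervals, and Newcombe intervals for differences, cover counting over peaks only, which are not independent. An MTF2 peak was found again in the RING1B WT −OHT library at 2553 of the regions (22.9%), in RING1B I53S −OHT at 1657 (14.8%) and in both at 1187 (10.6%). Of the peaks with JARID2, 67.3% were found in both. The lists differ in length (24485, 13559 and 11623 MTF2 peaks), and the part of library depth in this was not tested. The 1187 regions seen in all 3 −OHT libraries had a median score of 31.7. They held other proteins more often than the whole set: EPOP at 11.5% against 2.28%, PCGF6 at 28.1% against 13.5%, RYBP at 10.4% against 3.89%, and SUZ12 in Parental +OHT cells at 21.5% against 4.71%.

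The regions also gathered on chromosome 11, which held 1623 of them (14.5%), against 4.48% of the genome and 7.47% of protein-coding genes. The peaks with JARID2 did the same (14.03%). Chromosome 11 held 82.6% of the 690 RING1B peaks of Parental +OHT cells, and 24.2%, 67.2%, 29.4% and 62.7% of the SUZ12 peaks of the 4 MTF2 KO libraries. The values for RING1B +OHT and for MTF2 KO are therefore given with their part on this chromosome. Other Parental lists leaned to it as well. Of the regions with H3K27me3, 517 of 1770 −OHT and 394 of 1045 +OHT lay on chromosome 11. For H2AK119ub1 it held 268 of 1030 and 169 of 865, for EPOP 71 of 255 and 65 of 146, and for RYBP −OHT 133 of 435. SUZ12 had 66 of 583 and 81 of 526 there, near the share of all regions.

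By position, 5959 regions (53.4%, interval 52.4 to 54.3) lay within 2.5 kb of a start site, 526 (4.71%) in exons, 2017 (18.1%) in introns and 2667 (23.9%) between genes. Peaks with JARID2 were at promoters more often (64.2%). A centre was called CpG-rich when its 300 bases had at least 50% G+C and an observed over expected CpG ratio of at least 0.6. This held for 35.4% of the regions, 33.8% of peaks with JARID2 and 33.5% of 32841 RefSeq promoter windows of the same length. However, within groups of MTF2 score the shares separated. All MTF2 peaks were split into 3 equal groups by score. In the lowest group, 25.2% of the peaks without JARID2 and 4.85% of those with JARID2 were CpG-rich, in the middle group 49.5% and 20.2%, and in the highest 66.7% of only 168 and 45.2%. Each window sits at the midpoint of its peak, not at a summit, and covers less of a wide peak. Peaks with JARID2 were wider (median 1945 bp against 747 bp), and the part of width in these shares was not tested. At promoters the shares were 58.6% and 43.9%, whereas only 7.99% of the intergenic regions without JARID2 were CpG-rich.

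**Figure D2:**
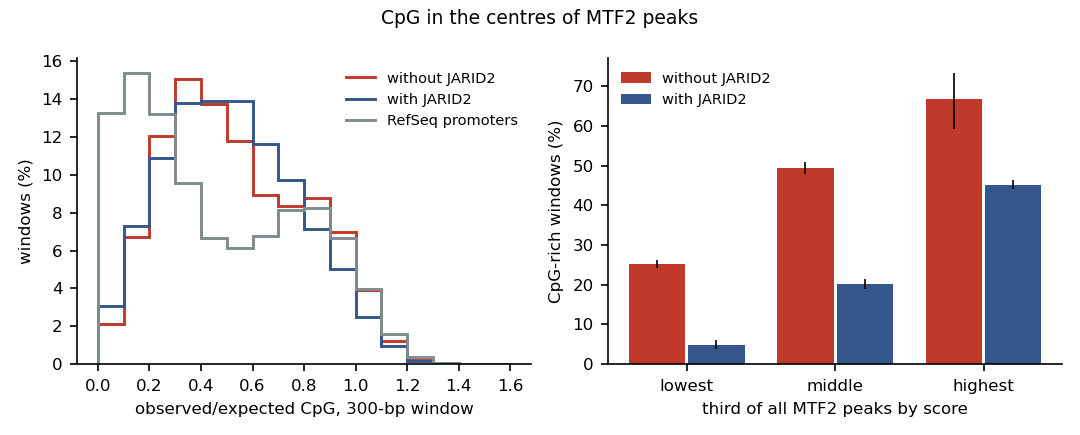
Left, observed over expected CpG in 300-bp windows at the centres of MTF2 peaks without and with JARID2 and in RefSeq promoter windows, as the percent of windows. Right, percent of CpG-rich centres by score group of all MTF2 peaks, with 95% Wilson intervals; peaks without JARID2 stand above those with JARID2 in each group (25.2% against 4.85%, 49.5% against 20.2%, 66.7% against 45.2%). Windows sit at peak midpoints, and peak width was not matched.

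To see which Polycomb proteins and marks accompany MTF2 at these sites, the other Parental −OHT peak lists were laid over them. H3K27me3, the product of PRC2, covered 1770 regions (15.8%), and SUZ12 583 (5.22%). This order turned in stronger regions: SUZ12 lay on 14.2% and H3K27me3 on 11.5% of those with an MTF2 score of at least 20, and on 20.3% and 15.9% of those seen in all 3 −OHT libraries. At peaks with JARID2, H3K27me3 lay on 68.1% and SUZ12 on 61.7%. The 2 readouts seldom met: 60 regions (0.537%) held both, 523 held SUZ12 without H3K27me3 and 1710 held H3K27me3 without SUZ12, whereas 50.4% of the peaks with JARID2 held both. EPOP, the other PRC2.1 subunit measured, was found at 255 regions (2.28%, against 52.97%), and AEBP2, which like JARID2 belongs to PRC2.2, at 0 (against 7.30%). Where SUZ12 was found it was mostly weak, with a median score of 13.6 (39.96 for the whole SUZ12 list).

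Of the PRC1 side, the mark H2AK119ub1 lay on 1030 regions (9.22%, against 47.5% with JARID2), whereas RING1B itself lay on 113 (1.01%, against 32.8%). The canonical subunits were almost missing, with PCGF2 at 14 regions and CBX7 at 1. PCGF6 was the PRC1 subunit found most often, at 1506 regions (13.5%, against 31.1%), with a median score of 17.4 that equalled that of its whole list (17.4). RYBP lay on 435 (3.89%). In all, 7092 regions (63.5%) held none of the 10 other antibodies, against 14.4% of the peaks with JARID2. The peak calling threshold bounds all of these shares, so a region without a peak is one where none was called.

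**Figure D3:**
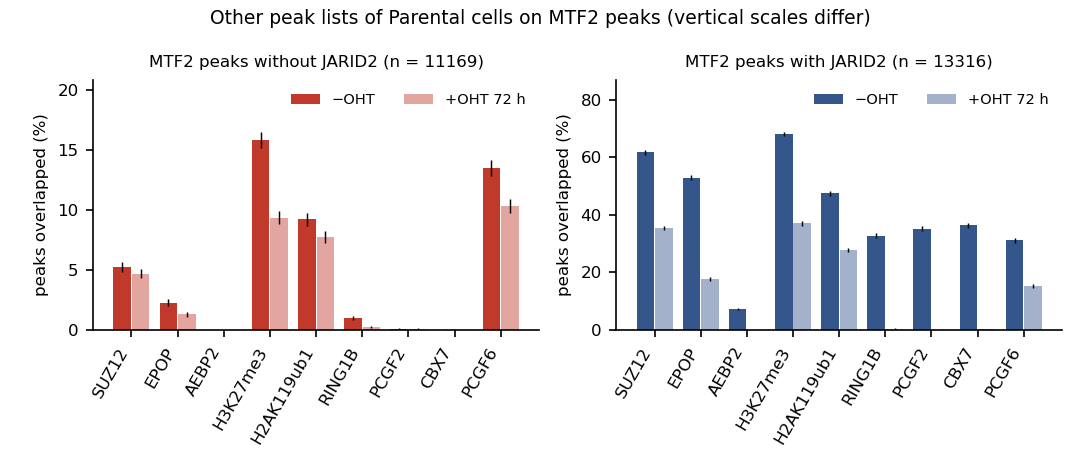
Percent of MTF2 peaks of Parental −OHT that overlap a peak of each antibody in Parental cells −OHT (dark) and +OHT 72 h (light), with 95% Wilson intervals; the left panel shows the 11169 peaks without JARID2 and the right panel the 13316 with JARID2, on different vertical scales. H3K27me3 (15.8%) and PCGF6 (13.5%) lead on the left, while CBX7, PCGF2 and AEBP2 are near 0 there.

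The PRC2 readouts were also compared within the 3 score groups, whose medians still differed between peaks without and with JARID2. In the lowest group (median 12.2 and 12.997), SUZ12 lay on 1.36% and 2.55% and H3K27me3 on 18.1% and 50.04%. In the middle score group (median 22.3 without and 29.5 with JARID2), SUZ12 lay on 9.93% of the peaks without JARID2 and 22.7% of those with JARID2 (difference −12.8 percentage points, −14.4 to −11.2). For H3K27me3 the shares were 12.4% and 45.9% (difference −33.4, −35.3 to −31.6). In the highest group (median 56.8 and 182), they were 34.5% and 90.6% for SUZ12 and 17.3% and 82.2% for H3K27me3. In the middle group RING1B was rare in both (1.55% and 3.04%), and PCGF6 went the other way, with 20.0% without and 14.4% with JARID2 (difference 5.55, 3.94 to 7.15). In the highest group, which held only 168 peaks without JARID2, PCGF6 was at 31.0% and 43.3%, so that this order was not kept there.

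The marks picked out regions of different kinds. Regions with PCGF6 were promoters in 88.2% of cases and CpG-rich in 78.3%, and they held RYBP in 24.7% and RING1B in 6.31%. Regions with SUZ12 looked alike in these features, with 90.1% promoters, 77.0% CpG-rich centres and PCGF6 at 41.3%. Regions with H3K27me3 were promoters in 35.0% and CpG-rich in 5.20%, and 21.2% of them also held H2AK119ub1. Between genes, H3K27me3 covered 23.6% of the regions and SUZ12 1.01%, compared with 10.4% and 8.81% at promoters.

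The sequences bound by partners of PCGF6 were also counted in the same windows, on both strands. CACGTG, the E-box that MAX and MGA recognise, occurred in 13.1% of the regions with PCGF6, in 6.03% of those without and in 7.15% of RefSeq promoter windows. TCCCGC, the core of the E2F site, occurred in 43.1%, 20.6% and 20.0%. CpG-rich windows hold more TCCCGC by composition, since it contains CG, as CACGTG does too, and a match is not a bound site. The regions with SUZ12, CpG-rich in 77.0%, held CACGTG in 6.69% and TCCCGC in 40.5%. For peaks with JARID2 and PCGF6 these were 8.50% and 29.7%. The part of CpG content in these shares was not tested. Of the printed windows, Clspn and Natd1 each hold 1 copy of TCCCGC or its complement and none of the 7 holds CACGTG.

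Single regions show these kinds, and the following were chosen after their values were seen. The highest PCGF6 scores were at Cops7a (578; a COP9 signalosome gene), at the Stag3 and Gm43720 start sites (407), and at Micu2 (336; a subunit of the mitochondrial calcium uniporter). Each of them also held RING1B, with scores of 67.3, 35.0 and 36.5. Stag3 encodes a cohesin subunit of meiosis. The highest SUZ12 scores were at Gbx2 (679), Fjx1 (470), Gnas (331) and Myc (122.6), and all 4 peaks lay within 1 kb of a JARID2 peak, at 588, 315, 598 and 338 bp. Gbx2 and Myc encode transcription factors, and the Gbx2 region also held RING1B (278) and PCGF2 (369).

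Distance to JARID2 separated the regions further. Within 1 kb, 39 of 707 regions held SUZ12 (5.52%, median SUZ12 score 19.3), and beyond 1 kb 544 of 10462 did (5.20%, median 13.3). H3K27me3 lay on 48.5% of the near and 13.6% of the far regions (difference 34.9 percentage points, 31.1 to 38.6). With OHT for 72 h, 4 of the 39 near regions kept SUZ12 (10.3%, 4.06 to 23.6) and 230 of the 544 far regions did (42.3%, 38.2 to 46.5). The near share was lower by 32.0 percentage points (difference −32.0, −39.5 to −18.1). None of Gbx2, Fjx1, Gnas and Myc held a SUZ12 peak with OHT. The regions with the highest SUZ12 scores in +OHT cells, again chosen after their values were seen, lay far from JARID2. Jmjd1c, which encodes a JmjC-domain protein, had 61.8 −OHT and 62.2 +OHT at 189688 bp from the nearest JARID2 peak. Mxd1 had 50.8 and 61.6 at 41819 bp, and Rbm15b, an RNA-binding protein gene, 37.97 and 51.8 at 227749 bp.

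Parental cells −OHT and +OHT at 72 h were compared through the same lists. SUZ12 was kept at 234 of 583 regions (40.1%, 36.2 to 44.2) and appeared at 292 others, so that the total went from 583 to 526. At peaks with JARID2, 56.2% kept SUZ12 and the total went from 8217 to 4720. H3K27me3 was kept at 713 of 1770 regions (40.3%) and appeared at 332, and H2AK119ub1 was kept at 297 of 1030 (28.8%) and appeared at 568. The H2AK119ub1 list still held 5450 peaks in Parental +OHT cells, against 12648 −OHT. The paper reports that H2AK119ub1 deposition is lost in Parental cells treated with OHT. Peaks were called per library and spike-in scaling was not used here. Kept and appeared therefore refer to listed peaks only, and whether the mark persisted or was gained was not tested. RING1B remained listed at 7 of 113 regions and appeared at 19, and 22 of these 26 were on chromosome 11. PCGF6 was kept at 919 of 1506 (61.0%, 58.5 to 63.5), more often than at peaks with JARID2 (46.1%, 44.5 to 47.6). EPOP was kept at 42 of 255 (16.5%), compared with 32.4% with JARID2. The RING1B WT +OHT lists, from cells that express RING1B, held SUZ12 at 295 regions and PCGF6 at 1093, against 526 and 1152 in Parental +OHT. They held H3K27me3 at 1777, H2AK119ub1 at 1751 and EPOP at 324, against 1045, 865 and 146. RING1B WT had no −OHT library of these antibodies, and the part of RING1B loss in the Parental changes was not tested.

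MTF2 itself was found with OHT at few of the regions, and more often at those seen in all 3 −OHT libraries. In Parental cells 1182 (10.6%) held it at 48 h and 1103 (9.88%) at 72 h, with 681 in both, compared with 51.6% and 43.7% of the peaks with JARID2. At 72 h the Parental share was 25.2% for an MTF2 score of at least 20 and 50.4% for the regions seen in all 3 −OHT libraries. In RING1B WT cells 1233 regions (11.04%) held it at 48 h, and 698 and 406 in the 2 libraries of 72 h (4.94% ± 1.85, SD, n = 2). In RING1B I53S cells the counts were 1770 (15.8%) at 48 h and 180 and 1327 at 72 h (6.75% ± 7.26, SD, n = 2). For the regions seen in all 3 −OHT libraries the means at 72 h were 27.04% in RING1B WT and 32.1% in RING1B I53S. The first of these RING1B I53S libraries listed only 3091 MTF2 peaks, against 7546 in the second. Thus, the 2 lines could not be ordered at 72 h: RING1B WT was higher in the first pair of libraries and RING1B I53S in the second, and an exact test of 2 against 2 cannot reach 0.05. At peaks with JARID2, RING1B WT was at 55.0% in both libraries and RING1B I53S at 19.0% and 39.98%.

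Within score groups, the order of the shares differed between groups and lines. In the middle score group, MTF2 was present at 48 h at 20.7% of the peaks without and 11.7% of those with JARID2, and at 72 h at 17.8% and 8.22% (difference 9.61 percentage points, 8.20 to 11.03). SUZ12 at 72 h followed the same order (8.56% and 3.44%, difference 5.12, 4.12 to 6.13), although SUZ12 −OHT had the opposite one. The second RING1B I53S library gave 21.4% and 7.08%, and the first 2.97% and 0.990%. The RING1B WT libraries at 72 h showed no such gap, with 11.96% and 11.7% in one and 6.76% and 11.4% in the other. In the highest group the Parental shares at 72 h were 64.9% of 168 and 68.3% (difference −3.42, −10.96 to 3.47), and the RING1B WT shares were 53.6% and 85.3% in one library and 44.0% and 85.5% in the other. The peaks without JARID2 in the middle group had the lower median score and the larger share of CpG-rich centres, and the part of either in these differences was not tested.

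**Figure D4:**
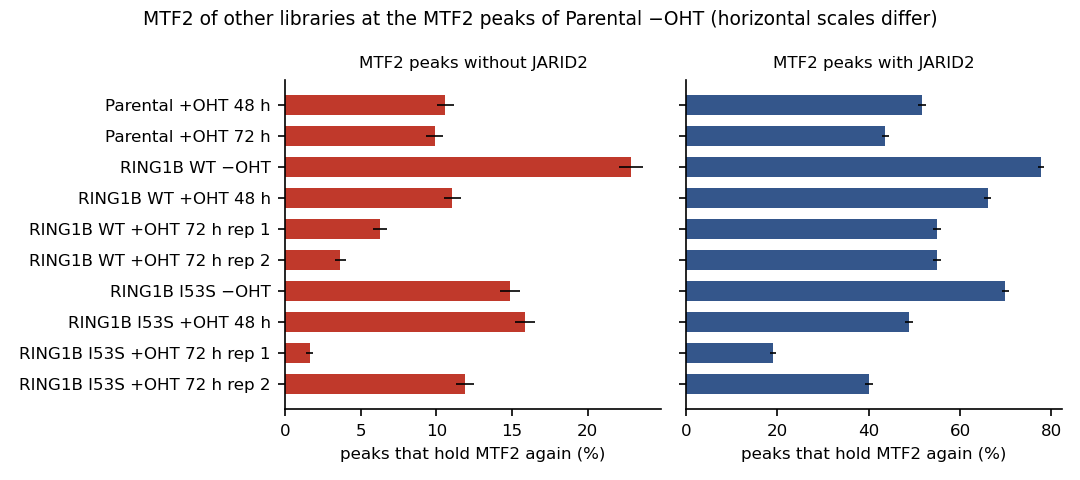
Percent of the Parental −OHT MTF2 peaks without JARID2 (left) and with JARID2 (right) that overlap an MTF2 peak of each other library, with 95% Wilson intervals and different horizontal scales. On the left the 2 RING1B I53S libraries at 72 h stand at 1.61% and 11.9%, on either side of both RING1B WT libraries (6.25% and 3.64%).

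Counting over the 8 MTF2 libraries with OHT, 8236 regions held MTF2 in 0, 2082 in 1 to 3, 813 in 4 to 7 and 38 in all 8 (2358 of the peaks with JARID2 held it in all 8). Regions with more of these libraries had higher MTF2 scores −OHT (medians 13.4, 20.1, 31.7 and 48.8) and were more often promoters (45.9%, 70.3%, 83.4% and 97.4%) and CpG-rich (26.9%, 55.2%, 68.8% and 76.3%). SUZ12 −OHT lay on 1.41%, 11.4%, 25.8% and 50.0% of them, and SUZ12 in Parental +OHT cells on 0.413%, 7.83%, 36.2% and 92.1%. Of the 38 regions with MTF2 in every +OHT library, 35 held SUZ12 in Parental +OHT cells, and 19 held it −OHT. The Parental +OHT libraries are among the 8 that chose these regions, and MTF2 and SUZ12 are subunits of PRC2. The SUZ12 shares with OHT are therefore not independent of the choice. H3K27me3 −OHT did not rise with the number of libraries, at 15.5%, 17.5%, 15.3% and 15.8%. The Mxd1, Gm13007, Arf2, Plbd2 and Jmjd1c regions, the 5 of highest score among those of the 38 without JARID2 in any library, had MTF2 scores of 72.8 to 78.0 −OHT and 14.4 to 46.5 in Parental cells at 72 h.

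In MTF2 KO cells −OHT, SUZ12 was listed at 56 regions (0.501%), and 7 of the 583 SUZ12 regions of Parental −OHT were among them (1.201%), whereas 35.7% of the SUZ12 sites with JARID2 kept it. Of the 56, 42 lay on chromosome 11, and off that chromosome the share was 0.147%. With OHT the MTF2 KO Parental library listed SUZ12 at 224 regions, of which 177 lay on chromosome 11, leaving 14 −OHT and 47 +OHT on all other chromosomes. The RING1B WT and RING1B I53S knockouts with OHT had 183 and 67, with 139 and 52 on chromosome 11. H3K27me3 was listed at 510 regions in MTF2 KO −OHT and 14 +OHT (288 and 11 on chromosome 11). In MTF2 KO −OHT the SUZ12 scores at these regions were low (median 11.3, highest 20.9), and none of the 38 regions with MTF2 in every +OHT library held SUZ12 there. The MTF2 level of the knockout cells was not analysed here.

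RNA was followed at the genes near these regions, 2 libraries per group, with 8.14e+06 to 1.27e+07 counted reads in the 12 libraries of the 3 lines and 6.96e+06 to 9.44e+06 in Eed fl/fl. The Eed fl/fl libraries had a count in 43762 to 46757 genes, against 23578 to 28032 in the others, and were fitted apart. A gene belonged to the set when a peak without JARID2 lay within 2.5 kb of a start site and no MTF2 peak with JARID2 did. Of 5821 such genes, 4309 had enough counts to be tested (4638 in Eed fl/fl). Nothing says that replicates came from separate cultures, so p-values measure the spread between these samples, which may be technical. In bulk libraries, fewer cells expressing a gene and less RNA per cell cannot be told apart.

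The genes were mostly expressed. Their median level in Parental −OHT cells was 3.51 and 3.37 RPKM (reads per kilobase of exon, scaled to library size) in the 2 libraries, compared with 0.220 and 0.178 RPKM for genes with JARID2, and 65.02% and 65.01% reached 1 RPKM, compared with 31.7% and 30.4%. Genes whose region held PCGF6 had a median of 5.44 RPKM, those with SUZ12 3.89 and those with H3K27me3 0.192. Rnf2, the gene deleted by OHT, was itself in the set. It had 200 and 257 CPM (counts scaled to library size) −OHT and 144 and 168 +OHT in Parental cells, a log2 difference of −0.55 (edgeR adjusted p = 0.0346) under the fold threshold of 1.5, and gene counts do not isolate the deleted exons. Of the 12 ESC markers, 5 fell and 1 rose in Parental cells with OHT. Sox2 and Klf4 belonged to the set, and no marker of primitive endoderm, trophoblast or fibroblasts did. Markers of these other cell types moved with OHT in the same libraries: 8 of 9 tested primitive endoderm genes, 8 of 9 trophoblast genes and 2 of 3 fibroblast genes rose in Parental cells. The summed level of the 10 primitive endoderm markers was 39.3 and 40.2 CPM −OHT and 154 and 167 CPM +OHT, that of the 10 trophoblast markers 89.5 and 107 CPM and then 427 and 456 CPM, and that of the 8 fibroblast markers 11.9 and 14.2 CPM and then 46.8 and 49.1 CPM. Gata6, Sox7 and Foxa2 were at 0 in both Parental −OHT libraries, and Col3a1, Dcn and Lum in all 4 Parental libraries. Of these markers, 9 of 10 for primitive endoderm, 7 of 10 for trophoblast and 2 of 8 for fibroblasts were themselves genes with JARID2. Among tested genes with JARID2, 37.6% rose in Parental cells. Whether such cells were present, and their part in the RNA results, was not tested.

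Few genes of the set passed the fold threshold when RING1B was lost. A gene was called at a log2 fold change of at least 1.5 and an adjusted p under 0.05 (edgeR quasi-likelihood test, Benjamini-Hochberg over all genes). In Parental cells 132 (3.06%) rose, where 15.1% of all 18154 genes tested rose, and 40 (0.928%) fell, where 1.83% of all did. The median log2 fold change was −0.14 for the set, 0.03 for all genes and 1.07 for genes with JARID2, of which 37.6% rose. Genes without an MTF2 peak near a start site were closer to the set. Of 7532 tested, 390 (5.18%) rose and 231 (3.07%) fell, with a median of −0.24, and by the adjusted p alone 585 rose and 1366 fell. The balance of the set turned the same way by the adjusted p alone: 307 of its genes rose (7.12%, against 21.9% of all) and 602 fell (13.97%, against 12.4%). In RING1B I53S cells 98 (2.27%) rose, against 12.8% of all, and 19 (0.441%) fell, against 1.04%, and by the adjusted p alone 207 (4.80%) rose, against 18.4%, and 381 (8.84%) fell, against 8.37%. In RING1B WT cells 10 (0.232%) rose, against 1.34%, and 3 (0.0696%) fell, against 0.0386%, and by the adjusted p alone 19 (0.441%) rose, against 1.91%, and 17 (0.395%) fell, against 0.308%. The RING1B WT counts rest on single libraries: without the second −OHT library 1 gene rose, and without the second +OHT library 0 did. The 3 that fell became 9 without the first and 1 without the second +OHT library. In RING1B I53S cells the 98 became 49 without the second −OHT library, and the 19 became 10 without it and 30 without the first +OHT library. In Eed fl/fl cells 1 gene rose, against 0.00795% of 25170 genes, and 0 fell, against 0%, while 271 genes of the set (5.84%) and 1372 of all genes (5.45%) had an unadjusted p under 0.05, and DESeq2 called 2 and 2 in the set and 24 and 13 of all. Leaving out an Eed fl/fl library gave 19 higher and 2 lower genes without the second −OHT library (241 and 21 of all genes), 4 and 0 without the first −OHT library (19 and 4 of all), 3 and 4 without the first +OHT library (9 and 17 of all), and 4 and 1 without the second +OHT library (27 and 5 of all).

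The OHT effects of the lines were compared in the same fit. Between RING1B WT and Parental cells the effect was higher for 7 genes of the set (0.162%, against 0.435% of all) and lower for 5 (0.116%, against 1.1%). Between RING1B WT and RING1B I53S it was higher for 5 (0.116%, against 0.138%) and lower for 0 (against 0.209%). Between RING1B I53S and Parental cells it was higher or lower for 0 genes of the set (against 0% of all). At an unadjusted p under 0.05 the last 2 comparisons had 172 genes of the set (3.99%, against 9.43% of all) and 64 (1.49%, against 2.69%). No tool other than edgeR was run on them.

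The genes that rose were also counted by the mark at their region. Of 339 genes with H3K27me3, 177 were tested and 35 rose in Parental cells, and of 5482 without it 4132 were tested and 97 rose. Genes with H3K27me3 were mostly silent, and one low −OHT entered the test only through a group in which it was counted, so shares of the tested genes are not compared. Of 532 genes with H2AK119ub1, 420 were tested and 25 rose, and of 5289 without it 3889 were tested and 107 rose. Of 1716 with PCGF6, 1408 were tested and 25 rose, and of 596 with SUZ12, 490 were tested and 10 rose. In RING1B I53S cells 29 of 177 tested genes with H3K27me3, 15 of 420 with H2AK119ub1 and 21 of 1408 with PCGF6 rose. Of all genes tested, 15.1% rose in Parental and 12.8% in RING1B I53S cells. Of the 132 that rose in Parental cells, 78 (59.1%) also rose in RING1B I53S cells, which is 79.6% of the 98 there. The same overlap over all genes was not counted here.

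Among the genes that rose, Gm32585 had 0.247 CPM in both Parental −OHT libraries and 15.9 and 16.8 CPM +OHT. Its log2 fold change was 5.98 (SE 0.51, edgeR adjusted p = 8.1e-08), and in RING1B I53S cells it went from 0.539 and 0.289 to 11.2 and 8.24 CPM. It was also called in RING1B WT cells, from 0.634 and 0.221 to 2.18 and 2.32 CPM (log2 2.37, edgeR adjusted p = 0.0243), and went from 0.626 and 1.19 to 8.21 and 8.53 CPM in Eed fl/fl without being called (log2 3.22, edgeR adjusted p = 0.0766). In each line its +OHT values lay above its −OHT values. In Parental, RING1B I53S and RING1B WT cells its −OHT values were at most 0.634 CPM. It therefore entered their test only through +OHT libraries, and its fold changes there rest on very low −OHT values. Btg2 went from 50.6 and 42.5 to 221 and 243 CPM in Parental cells (log2 2.32, SE 0.20, edgeR adjusted p = 1.2e-07), from 74.3 and 59.8 to 183 and 246 CPM in RING1B I53S, and from 56.0 and 55.6 to 114 and 141 CPM in RING1B WT. Its +OHT libraries were above the −OHT libraries in each line, in Eed fl/fl as well (36.8 and 30.6, then 151 and 100.0 CPM), where it was not called. Rec8, the meiotic cohesin subunit, whose region held H3K27me3, H2AK119ub1 and PCGF6, went from 33.9 and 28.2 to 162 and 158 CPM in Parental cells (log2 2.37, SE 0.22, edgeR adjusted p = 1.8e-07). S100a6, a calcium-binding protein, went from 4.52 and 3.46 to 24.3 and 37.7 CPM (log2 2.94, SE 0.31, edgeR adjusted p = 9.4e-07). None of these values overlapped between −OHT and +OHT. However, Gm32585, Btg2, Rec8 and S100a6 were chosen by their lowest adjusted p among the genes that rose in Parental cells. The gap between their −OHT and +OHT values there therefore adds no support. Gm32585 and S100a6 were also chosen in this way in RING1B I53S cells, so the same holds for them there.

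Genes that fell included several with high expression in ESCs. Trh, which encodes the precursor of thyrotropin-releasing hormone, had 1691 and 2076 CPM in Parental −OHT and 87.8 and 84.7 CPM +OHT (log2 −4.45, SE 0.25, edgeR adjusted p = 7.0e-10). Lefty1, an inhibitor of Nodal signalling, went from 311 and 254 to 16.9 and 22.7 CPM (log2 −3.83, SE 0.27, edgeR adjusted p = 7.7e-09). Both also fell in RING1B I53S cells, to 87.6 and 115 CPM and to 13.6 and 22.8 CPM. Nr0b1, a nuclear receptor of the ESC network, went from 259 and 229 to 38.1 and 35.7 CPM in Parental cells (log2 −2.72, SE 0.23, edgeR adjusted p = 8.1e-08), and Arid5b, a DNA-binding protein, from 204 and 189 to 41.1 and 49.2 CPM (log2 −2.12, SE 0.19, edgeR adjusted p = 1.2e-07). These 4 were likewise chosen by their lowest adjusted p in Parental cells, so the gap between their −OHT and +OHT values there adds no support. In RING1B WT cells Trh was called too (1875 and 2822, then 670 and 524 CPM; log2 −1.95, edgeR adjusted p = 0.00052), whereas Lefty1 and Nr0b1 stayed under the fold threshold (log2 −1.32 and −1.35).

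**Figure D5:**
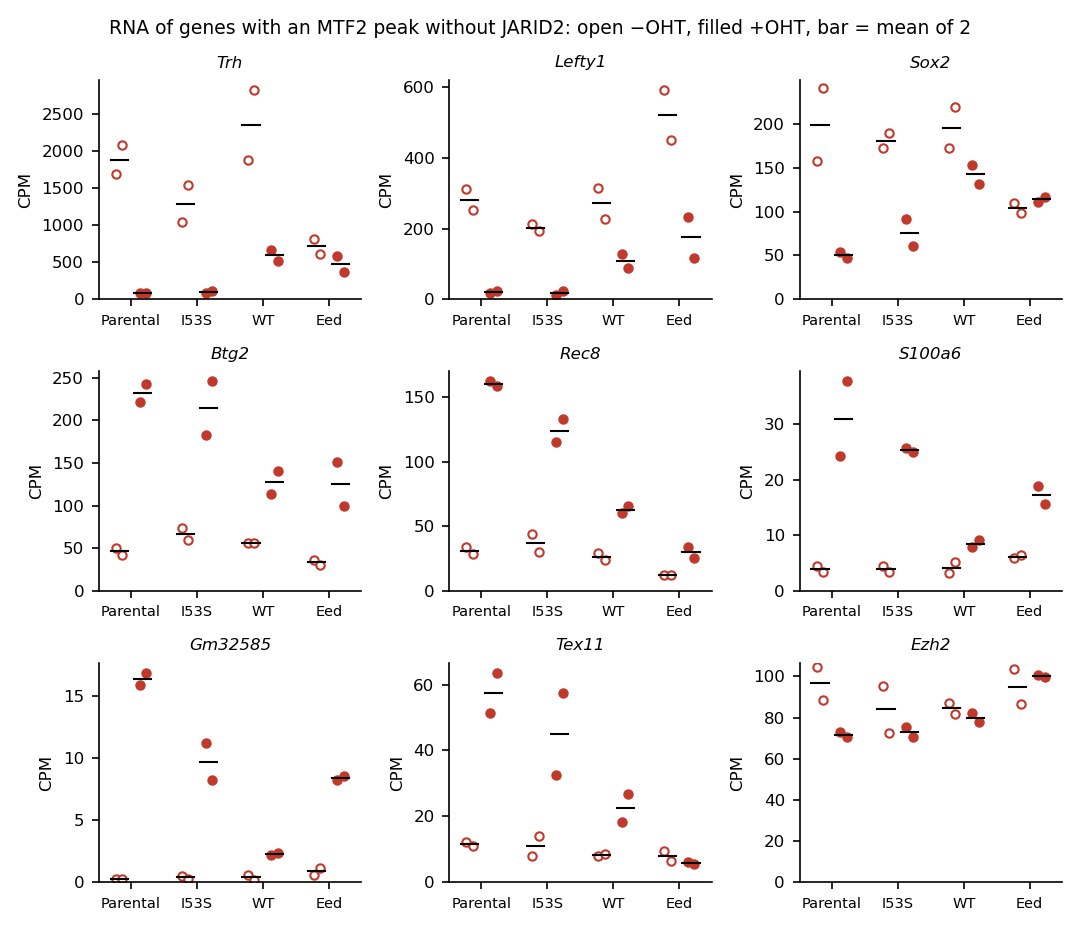
RNA in CPM (vertical axes from 0) of 9 genes near MTF2 peaks without JARID2, in Parental, RING1B I53S, RING1B WT and Eed fl/fl cells; open points are −OHT libraries, filled points +OHT libraries, bars the mean of 2. Trh, Lefty1 and Sox2 fall and Btg2, Rec8, S100a6, Gm32585 and Tex11 rise in Parental and RING1B I53S cells, though Sox2 in RING1B I53S stays under the fold threshold (log2 −1.24), and Ezh2 stays between 70.6 and 105 CPM in Parental cells.

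A few genes changed in RING1B WT cells as well. Gm4779 rose there (log2 1.58), in Parental (2.07) and in RING1B I53S cells (1.91), and so did 8030474K03Rik (1.67, 2.72 and 2.73). Pdzk1ip1, which encodes a membrane protein, went from 0.317 and 0.331 to 2.18 and 1.71 CPM in RING1B WT cells (log2 2.57) and had log2 fold changes of 2.99 in Parental and 3.25 in RING1B I53S cells. Nfkbil1 (log2 −1.89) and Tbcc, a tubulin folding cofactor (−1.55), were called lower in RING1B WT cells, and their difference from the Parental effect did not pass the test (edgeR interaction, adjusted p = 0.219 and 0.195). Gm4779 and 8030474K03Rik share 1 MTF2 peak on chromosome X, and the counts were made without strand, so overlapping genes cannot be told apart. Ano3, a gene of the anoctamin family, was the gene that rose in Eed fl/fl cells, from 10.9 and 7.14 to 49.2 and 39.4 CPM (log2 2.34, SE 0.28, edgeR adjusted p = 0.0482). Eed went from 259 and 172 to 67.1 and 41.6 CPM there, with groups apart but not called (log2 −1.95, edgeR adjusted p = 0.0766).

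Gene lists of the Polycomb system and of development were placed as follows. Of 6 PRC2 core genes, 4 had a region without JARID2 (Ezh2, Eed, Suz12 and Rbbp4) and 0 had JARID2, and 0 of the 4 were called in any line. Among 23 PRC1 genes 7 belonged to the set (Rnf2, Ring1, Pcgf1, Pcgf6, Cbx6, Phc3 and Rybp), none called. By contrast, only 7 of 207 developmental transcription factor genes belonged to it, against 184 with JARID2, and 0 of the 7 rose in Parental cells while 122 of the whole list did. Sox2 was the 1 of the 7 that fell, from 157 and 240 to 54.3 and 46.8 CPM (log2 −1.97, SE 0.23, edgeR adjusted p = 3.4e-06). Of 78 signalling ligand genes 7 belonged to the set, and 2 of the 5 tested fell in Parental cells, Lefty1 and the ESC growth factor gene Fgf4 (log2 −1.51, edgeR adjusted p = 0.00011). Of 20 germline genes 2 belonged to it: Tex11, an X-linked gene of meiosis, rose in Parental cells from 12.2 and 11.002 to 51.3 and 63.6 CPM (log2 2.31, SE 0.30, edgeR adjusted p = 8.1e-06), and Stag3, from 20.8 and 19.7 to 24.7 and 28.8 CPM, was not called. Klf4, the other ESC factor of the set, went from 93.6 and 102 to 67.8 and 86.4 CPM and was not called (log2 −0.34).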

How the data were processed

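Peak lists of 69 ChIP-seq libraries and counts of 16 RNA-seq libraries were used. The authors aligned ChIP reads to mm10 with Bowtie 1.2.2 and called peaks with MACS2 2.1.1 per library, and the deposited scores are −log10 p-values. They aligned RNA reads with STAR 2.7, removed duplicates and counted genes with featureCounts without strand on GENCODE M21, and the deposited counts are raw. The authors' comparison tables hold fold changes and p-values and were not used. A normalized table of the Eed fl/fl libraries was not used, since their raw counts were at hand.

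Peaks overlapped at 1 bp or more. Counts were fitted with edgeR 4.0.16 in R 4.3.3 (TMM, filterByExpr, quasi-likelihood), 12 libraries together and 4 of Eed fl/fl apart. On simulated data, 145 to 148 of 200 genes changed by a log2 fold of 2 were recovered among 18154. CPM and RPKM use TMM-scaled library sizes, RPKM also merged exon length. Alternatives were limma 3.58.1, DESeq2 1.42.0 and other thresholds.

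Named genes are the regions of highest MTF2 score at coding genes (8) or with MTF2 in every +OHT library (5), the genes of lowest adjusted p per direction and line (4 in Parental, 3 in the others), and members of gene lists. The members, lists and tests were chosen with earlier results of these data known. Inputs, spike-in scaling, the depth of ChIP libraries and 1 RYBP library without a clear label were not analysed here.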

Additional observations from a re-analysis of the deposited data

Results flagged for a closer look

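Tests of a difference between OHT effects called a few genes near MTF2 peaks without JARID2. Comparing RING1B WT with Parental cells, 7 genes of the set had a higher OHT effect and 5 a lower one (edgeR interaction, adjusted p under 0.05 and a log2 difference of at least 1.5), against 79 and 200 of all genes, and comparing RING1B WT with RING1B I53S, 5 and 0, with 172 (3.99%) at an unadjusted p under 0.05, against 1712 (9.43%) of all genes. Between RING1B I53S and Parental cells there were 0 in either direction, with 64 (1.49%) at an unadjusted p under 0.05, against 488 (2.69%) of all genes, and no other tool was run on these differences.

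The effect in RING1B WT minus that in Parental cells was −3.61 on the log2 scale for Gm32585, −1.89 for S100a6 and −1.11 for Btg2. For genes that fell it was 2.49 for Trh, 2.52 for Lefty1, 1.38 for Nr0b1 and 1.64 for Arid5b. Against RING1B I53S the difference was 1.71 for Trh, 2.15 for Lefty1 and 1.26 for Arid5b. Those of Btg2, Nr0b1 and, against RING1B I53S, Arid5b passed the adjusted p but not the fold threshold.

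From −OHT to +OHT 48 h the number of regions with MTF2 changed by −1320 in RING1B WT and by 113 in RING1B I53S. From −OHT to +OHT 72 h the number with SUZ12 changed by −57 in Parental and by 168 in Parental MTF2 KO cells, and off chromosome 11 the latter went from 14 to 47. With 1 library each, neither difference was tested.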

How the results depend on the processing

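Of 63 alternative values for the peak results, 31 stayed within the counting interval or spread of the main value. With an MTF2 score of at least 20, 3049 regions remained, with promoters at 69.6%, SUZ12 14.2%, H3K27me3 11.5%, RING1B 1.94%, H2AK119ub1 12.2%, and MTF2 at 72 h at 25.2% in Parental, 14.7% in RING1B WT and 17.2% in RING1B I53S. For the regions seen in all 3 −OHT libraries these were 76.4% (promoters), 20.3% (SUZ12), 2.53% (RING1B), 13.6% (H2AK119ub1), 50.4%, 27.04% and 32.1%, and 0.842% for SUZ12 in MTF2 KO. With 50% coverage of the peak, SUZ12 was 3.21%, H3K27me3 12.3%, RING1B 0.573%, H2AK119ub1 5.34%, MTF2 in Parental at 72 h 8.22% and SUZ12 in MTF2 KO 0.269%. Without JARID2 within 1 kb, H3K27me3 was 13.6% and H2AK119ub1 8.37%. Without chromosome 11, an alternative chosen after seeing the data, promoters were 54.9%, H3K27me3 13.1%, H2AK119ub1 7.98%, MTF2 in Parental 9.10% and SUZ12 in MTF2 KO 0.147%. Promoters were 46.6% at 1 kb and 51.6% by peak centre. 

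Of 104 alternative RNA counts, 74 stayed within 1.5 times. By FDR alone, 307 genes rose and 602 fell in Parental (3978 and 2250 of all genes), 207 and 381 in RING1B I53S (3337 and 1519), and 19 and 17 in RING1B WT (346 and 56). Without a filter RING1B WT gave 22 and 5 and Eed 0 higher. Leaving out 1 library gave 90 to 112 higher and 31 to 42 lower genes in Parental, 49 to 92 and 10 to 30 in RING1B I53S, 0 to 9 and 1 to 9 in RING1B WT, and 3 to 19 and 0 to 4 in Eed, and MTF2 shares at 72 h of 3.64% to 6.25% in RING1B WT and 1.61% to 11.9% in RING1B I53S. A lone remaining library is assumed to vary like the other groups. In Eed, DESeq2 called 2 and 2, RLE 2 higher and limma 0 higher. Same-numbered libraries had correlations of deviations from 0.0627 to 0.459 within lines, and nothing says that the number pairs them. The replicate block gave 17 higher in RING1B WT, and 14 higher and 2 lower in Eed (140 and 21 of all genes). Peak lists show no signal under a score of 10.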
